A study of Homo sapiens with 6 samples.

Results

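T98G, one of the 3 established glioblastoma cell lines whose RNA was sequenced, was set against the other lines, LN-229 and U251, to describe the genes by which it stood apart from each of them. The T98G libraries numbered 2 of 6 in all. They were chosen by the cell line that the sample labels give, and both were kept whatever their siPOOL. A siPOOL is a pool of siRNAs. In each line, 1 library came from cells transfected with non-target siPOOLs (siControl) and 1 from cells transfected with siPOOLs against the long non-coding RNA HOTAIRM1 (siHOTAIRM1), with RNA isolated 72 h later. The 2 libraries of a line are therefore not repeats of the same treatment, and nothing in the labels says that the cultures were independent. Every p-value below rests on the spread left among the 6 libraries once line and siPOOL are fitted. The test moderates this spread with values from all tested genes, so very small p-values do not stand for repeated cultures. Each line is a culture derived from the tumour of 1 patient and kept for decades, so each stands for itself and not for a class of tumours. The titles of the first line read LNT229, and its cell line entry reads LN-229.

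Glioblastoma is a malignant glial tumour of the adult brain. Cells of these tumours often carry intermediate filaments and transcription factors of neural progenitors, such as nestin and SOX2, and can also make extracellular matrix in the manner of mesenchymal cells. Lines grown in serum for many passages keep different parts of this range. They also differ in the DNA repair enzyme MGMT, which removes the alkyl groups that the drug temozolomide places on guanine and which many glioblastomas silence by methylation of its promoter.

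The deposited values are CPM, reads scaled by the depth of the library, of 59074 genes. From the spacing of low values, the T98G libraries held 69.1 and 72.7 M reads and the other 4 held 52.3 to 104 M, and 3 reads, taken as the smallest detectable level, corresponded to 0.0289 to 0.0574 CPM. A value of 0.0001 CPM is the constant that was added to every gene and is given below as listed at 0. The genes of the mitochondrial DNA, which every cell uses, are also listed at 0 in every library, so such an entry does not by itself show that a transcript was absent. Differences are given as log2(CPM + 1), T98G minus the other line, and limma was run on the 14294 genes that averaged 1 CPM or more across all 6 libraries. HOTAIRM1 was at 3.49 and 2.15 CPM in the siControl and siHOTAIRM1 libraries of T98G, 1.99 and 0.952 CPM in LN-229 and 1.27 and 0.623 CPM in U251, so the targeted transcript was lower in the siHOTAIRM1 library of each line. Across the tested genes, the T98G libraries correlated with each other with r = 0.98999 and with those of the other lines with r from 0.775 to 0.807, and LN-229 correlated with U251 with r from 0.783 to 0.799. These correlations are across genes, which are not independent replicates, and the ranges between lines overlap.

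T98G differed from each line over a large part of the transcriptome. Against LN-229, 3445 genes (24.1% of those tested) were higher and 4406 (30.8%) lower with an adjusted p under 0.05. Against U251, 3304 (23.1%) were higher and 5866 (41%) lower. Median centring of each library changed the share of the U251 calls that were higher from 36.0% to 49.5%, and rescaling each library to an equal sum over the listed genes changed it to 59.2% (5141 higher and 3549 lower), so the balance of directions depended on the scaling. The median difference of all tested genes was -0.08 against LN-229 and -0.22 against U251. Leaving out the siControl library of T98G gave 2022 higher genes against LN-229 and 2177 against U251, and leaving out its siHOTAIRM1 library gave 2437 and 3806 lower genes. Without the siControl library of LN-229 2283 were higher than in that line, and without its siHOTAIRM1 library 2636 were lower. A gene was counted as particular to T98G where both contrasts passed this threshold in the same direction, the lesser of both differences was at least 1, and both T98G libraries lay beyond all 4 others. The contrasts share the T98G libraries and are not independent. In this way 710 genes (4.97%) were higher than in both lines and 672 (4.7%) were lower. The adjusted p removed none of them, since the same limits on levels alone gave the same 710 and 672 genes. Those limits picked 790 higher and 576 lower genes in LN-229, and 1100 and 618 in U251, so T98G did not stand apart by the number of genes that were its own. The median absolute difference between the T98G libraries was 0.20 for the genes counted and 0.22 for all tested genes. In COL3A1 alone of the genes counted was the difference between the T98G libraries larger than the lesser difference. A tested gene under 1 CPM in every library of the other lines passed the filter only through T98G. A tested gene under 1 CPM in T98G passed it only through the other lines. The shares of lists given below depend in part on this and are to be set beside the 4.97% and 4.7%.

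**Figure D1:**
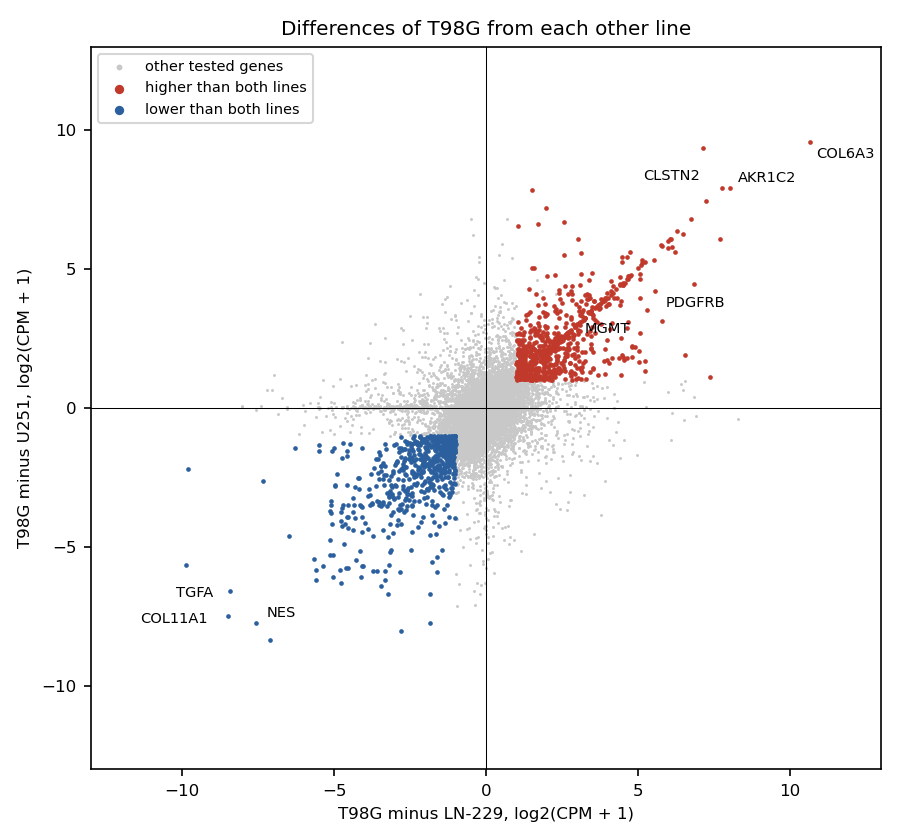
Each point is a tested gene outside chromosome Y, placed by its difference in log2(CPM + 1) between T98G and LN-229 (horizontal) and between T98G and U251 (vertical), as means over the 2 libraries of a line. Red and blue points are the genes counted as higher or lower in T98G than in both lines, and COL6A3 and NES lie near the ends of the diagonal.

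The genes that were highest in T98G relative to both lines had quite different functions. COL6A3, the alpha-3 chain of the beaded-filament collagen VI (chr2:237324003-237414328 of hg38, minus strand, protein-coding), was at 3636 CPM in both T98G libraries. It was at 3.16 and 0.212 CPM in LN-229 and at 4.13 and 3.36 CPM in U251. The lowest T98G library thus exceeded the highest other library 880-fold, and the differences were 10.66 and 9.59 (standard error 0.24, adjusted p = 8.77e-29 and 1.60e-27). AKR1C2, an aldo-keto reductase that acts on steroids, was at 407 and 267 CPM in T98G and at 0.194 to 0.544 CPM in the other libraries. CLSTN2, a calsyntenin of synaptic membranes, was at 189 and 307 CPM in T98G, at 0.227 CPM in the siControl library of LN-229, and listed at 0 in the other 3. GABRA2, the alpha-2 subunit of the GABA-A receptor, was at 174 and 176 CPM, against at most 0.317 CPM elsewhere. That T98G did not overlap with the other lines in these genes follows from the rule by which they were counted.

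Of the other 8 genes among the 12 with the largest lesser difference, 3 encode secreted proteins. TNFRSF11B (osteoprotegerin, the decoy receptor of RANKL) was at 873 and 689 CPM in T98G, 5.06 and 4.03 CPM in LN-229 and 0.268 and 0.119 CPM in U251. CXCL12, the ligand of the chemokine receptor CXCR4, was at 70.9 and 64.6 CPM and at most at 0.0794 CPM in the other lines. SLPI, a secreted inhibitor of leukocyte proteases, was at 107 CPM in the siControl and 43.0 CPM in the siHOTAIRM1 library, and at or under 0.0192 CPM in the others. These were levels in bulk RNA, in which fewer expressing cells and less RNA per cell cannot be told apart. The remaining members were the cGMP phosphodiesterase PDE5A (318 and 460 CPM against 2.30 to 2.65), RANBP3L (89.8 and 92.1 CPM against at most 0.237), the reductase AKR1B10, the integrin ITGA8 and the long non-coding RNA FENDRR.

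**Figure D2:**
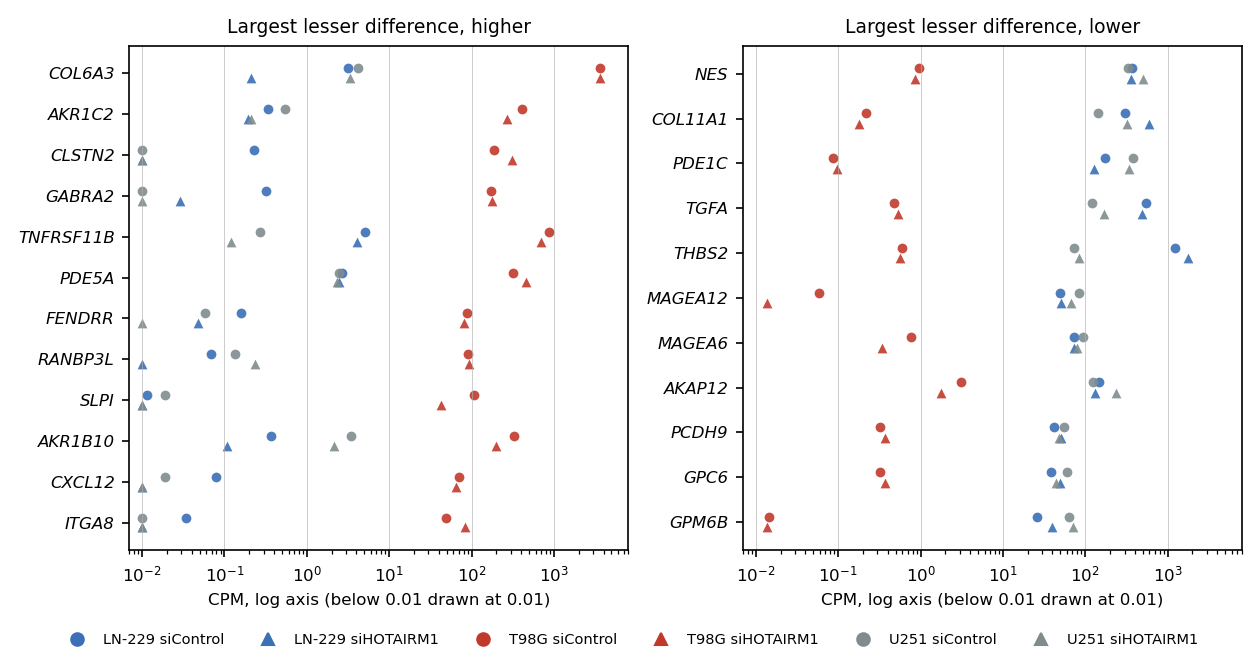
Level of genes among the 12 with the largest lesser difference in either direction, in CPM on a log axis, with 1 symbol per library (colour for the line, circle for siControl, triangle for siHOTAIRM1, values under 0.01 CPM drawn at 0.01). The T98G symbols lie apart from the others in all genes shown, as the rule for counted genes requires.

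FENDRR and its neighbour FOXF1 are transcribed in opposite directions on chromosome 16, FENDRR at chr16:86474529-86509099 on the minus strand and FOXF1 at chr16:86510527-86515422 on the plus strand. FOXF1 encodes a forkhead factor of the mesenchyme around inner organs. FENDRR was at 88.9 and 81.4 CPM in T98G and FOXF1 at 36.8 and 33.6 CPM. In the other lines FENDRR was at most at 0.159 CPM and FOXF1 at most at 0.770 CPM. The library kit is not stated to keep strand, so reads from an overlap of such a pair could not be separated, but the annotated genes do not overlap.

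The intermediate filament nestin led the genes that were lower in T98G. NES (chr1:156668763-156677407, minus strand), which marks neural progenitors and most gliomas, was at 0.956 and 0.866 CPM in T98G, 368 and 360 CPM in LN-229, and 329 and 507 CPM in U251. The lowest other library exceeded the highest T98G library 344-fold (differences -7.58 and -7.74, standard error 0.19, adjusted p = 1.07e-27 and 1.02e-27). COL11A1, a chain of the minor fibrillar collagen XI, was at 0.217 and 0.179 CPM in T98G and between 145 and 600 CPM elsewhere. TGFA, a ligand of EGFR, was at 0.478 and 0.536 CPM in T98G, 551 and 488 CPM in LN-229, and 122 and 170 CPM in U251. THBS2, the matrix protein thrombospondin 2, was at 0.594 and 0.564 CPM against 1229 and 1753 CPM in LN-229 and 73.5 and 84.3 CPM in U251. The phosphodiesterase PDE1C was at 0.0870 and 0.0963 CPM in T98G and at 128 to 383 CPM elsewhere.

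Others of the 12 lowest genes were the cancer-testis antigens MAGEA12 and MAGEA6, the protein kinase A anchor AKAP12, the protocadherin PCDH9, the glypican GPC6 and the neural membrane protein GPM6B. AKAP12 was at 3.13 and 1.76 CPM in T98G and 125 to 235 CPM elsewhere. GPM6B was at 1 read in each T98G library and at 26.2 to 71.01 CPM in the others.

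A stricter, purely descriptive class held genes of at least 1 CPM in both T98G libraries and at most 3 reads in each of the other 4, and its reverse. Of the 59074 listed genes, 105 were present in T98G alone and 72 were absent from T98G alone, and no test was made of either class. Of the former, 73 passed the filter for the test and all 72 of the latter did. Those 73 passed it only through their T98G libraries, so their calls lend the class no support. The 8 present genes with the highest level in their lower T98G library were ITGA8 (49.5 and 82.5 CPM), SLPI, BASP1 (44.1 and 31.9), TP53I11 (27.1 and 24.8), TMEM52B (25.3 and 23.6), ACVRL1 (23.4 and 24.96), SLCO2B1 (31.1 and 21.4) and GGT5 (23.04 and 18.3). BASP1 is a membrane-bound growth cone protein, ACVRL1 an activin receptor-like kinase best known from endothelium, SLCO2B1 an organic anion transporter and GGT5 a gamma-glutamyltransferase. The 8 absent genes with the highest lowest level elsewhere were GPM6B, the receptor phosphatase PTPRZ1 (0.0146 and 0.0413 CPM against 20.98 to 90.9), MAGEA2, SLAIN1, the small GTPase RHOJ, CSAG1, the galactosyltransferase UGT8 and the non-coding host transcript SNHG14. UGT8 makes the galactolipids of myelin. PTPRZ1 and GPM6B are both abundant in glia of the brain.

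Several markers of neural progenitors were low in T98G. Of 10 neural stem cell markers, 5 passed the filter, and 3 of them (NES, SOX2, POU3F2) were lower than in both lines and 0 higher. SOX2, a transcription factor of neural progenitors, was at 1 read in the siControl library of T98G and listed at 0 in the other, against 8.15 and 8.60 CPM in LN-229 and 91.4 and 117 CPM in U251. POU3F2, another progenitor factor, was at 0.0291 and 0.0688 CPM in T98G and at 19.1 to 51.1 CPM elsewhere. The whole marker list summed to 3.68 and 4.06 CPM in T98G and to 393 to 684 CPM in the other libraries, most of it NES. PAX6 (1.51 and 1.58 CPM in T98G) was above LN-229 (0.0114 and 0.0290) and under U251 (3.66 and 4.46), so the list did not move as a whole.

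Of 7 tested astrocyte markers, 2 were lower and 1 higher in T98G than in both lines. The calcium-binding protein S100B was listed at 0 in both T98G libraries, against 21.1 and 24.7 CPM in LN-229 and 2.53 and 2.06 CPM in U251. The fatty acid binding protein FABP7 was at 1 read at most in T98G, 2.95 and 2.06 CPM in LN-229, and 58.2 and 35.7 CPM in U251. Glutamine synthetase, GLUL, was higher, at 80.2 and 54.4 CPM against 28.2 and 31.1 CPM in LN-229 and 11.8 and 7.82 CPM in U251. Its lesser difference was 1.13 and fell to 0.79 without the siControl library of LN-229 and to 0.96 without that of T98G, under the limit of 1. GFAP, the defining astrocyte filament, was near 0 in T98G (0.0435 and 0.0551 CPM) and also low in LN-229 (0.317 and 0.298), and at 42.5 and 20.7 CPM in U251.

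None of the 7 tested oligodendrocyte lineage and 5 neuronal markers was beyond both lines. SOX10 and CSPG4 were high in LN-229 (81.5 and 319 CPM in the siControl library) and at or under 0.193 CPM in both T98G libraries and in U251. The 7 microglial and blood markers, none of which passed the filter, summed to 2.27 and 1.69 CPM in T98G, 0.114 and 0.126 CPM in LN-229, and 2.32 and 1.31 CPM in U251, with AIF1 and CX3CR1 listed at 0 in both T98G libraries and ITGAM at 1.32 and 1.14 CPM. The 6 epithelial markers summed to 76.8 and 58.4 CPM in T98G, 97.7 and 79.8 CPM in LN-229, and 5.59 and 4.21 CPM in U251. Nearly all of this was the keratin KRT18 (73.98 and 55.4 CPM in T98G), while the epithelial cadherin CDH1 was at 1 read at most in T98G. The part of other cells in the results was not tested.

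Mesenchymal markers went both ways on the deposited scale. Of 11 tested, 3 were higher than in both lines and 1 lower, beside 4.97% and 4.7% of all tested genes. Under median centring or rescaling 4 were higher and 0 lower, and under quantile normalization 4 and 1. PDGFRB, a receptor of pericytes and fibroblasts, was at 185 and 188 CPM in T98G, 3.19 and 2.75 CPM in LN-229, and 8.50 and 9.68 CPM in U251 (differences 5.57 and 4.22, standard error 0.17, adjusted p = 6.56e-25 and 2.03e-21). CHI3L1, a chitinase-like secreted glycoprotein, was at 9.61 and 3.08 CPM and at or under 0.0384 CPM elsewhere. COL3A1 was at 2.32 CPM in the siControl and 26.6 CPM in the siHOTAIRM1 library of T98G and at most at 0.404 CPM elsewhere. CHI3L1 and COL3A1 thus passed the filter only through their T98G libraries, so the share of higher markers follows in part from the filter. VIM, the vimentin filament, was the lower gene, with 403 and 254 CPM against 635 and 652 CPM in LN-229 and 1794 and 1309 CPM in U251. Its lesser difference of -1.01 was at the limit and missed it under median centring (-0.92) and without the siHOTAIRM1 library of LN-229 (-0.71) or of T98G (-0.78). FN1, CD44 and COL1A2 were not beyond both lines. COL1A2 was at 409 and 511 CPM in T98G, under U251 (587 and 622) and far above LN-229 (0.453 and 0.443).

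**Figure D3:**
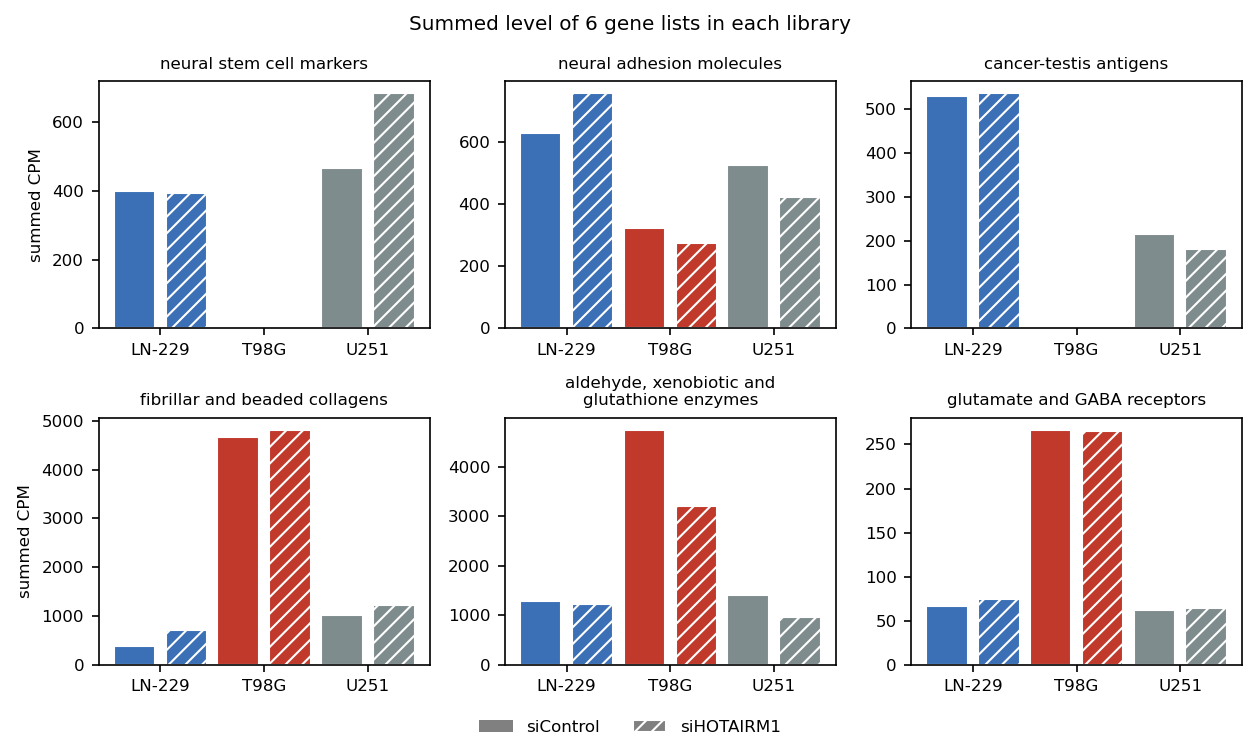
Summed CPM of 6 gene lists in each library, with 1 bar per library from 0 on a linear axis (plain for siControl, hatched for siHOTAIRM1). The T98G bars of the neural stem cell markers (3.68 and 4.06 CPM) and of the cancer-testis antigens (4.37 and 3.28 CPM) are too short to see, and those of the collagens reach 4670 and 4816 CPM.

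Collagen VI set T98G apart in the matrix. Of 13 tested fibrillar and beaded collagens, 5 (38.5%) were higher in T98G and 1 lower than in both lines. The list summed to 4670 and 4816 CPM in T98G and 392.1 to 1236 CPM in the other libraries, and COL6A3 alone made up 3636 CPM of it. All 3 chains of classical collagen VI were among the higher genes. COL6A1 was at 136 and 126 CPM in T98G against 18.8 to 41.0 CPM elsewhere, and COL6A2 at 118 and 119 CPM against 12.1 to 30.1 CPM. COL5A1, a regulator of fibril diameter, was at 100 and 127 CPM in T98G, 26.0 and 33.7 CPM in U251, and at most at 0.238 CPM in LN-229. COL11A1 was the lower gene.

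Of the basement membrane genes, some collagen IV chains were lower and some laminin chains higher. Of 16 tested, COL4A4, COL4A5 and COL4A6 were lower and LAMA3 and LAMB3 higher than in both lines. COL4A6 was at 0.217 and 0.206 CPM in T98G and at 17.00 to 37.96 CPM elsewhere. COL4A4 missed the limit under median centring (-0.99). COL4A5 was at 1.52 and 2.68 CPM against 17.75 to 54.4 CPM. LAMB3, a chain of the laminin of epithelial basement membranes, was at 45.7 and 21.7 CPM in T98G against 4.85 to 16.04 CPM. Its lesser difference of 1.25 fell to 0.97 without the siControl library of T98G. That of LAMA3 (1.04) fell to 0.96 under quantile normalization, 0.89 without the siControl library of T98G and 0.95 without that of U251.

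Integrins, the receptors of this matrix, went both ways, with 3 (17.6%) higher and 4 (23.5%) lower of 17 tested. The shares of all tested genes were 4.97% and 4.7%. The integrin list summed to 1421 and 1237 CPM in T98G and to 1808 to 2995 CPM in the other libraries. Besides ITGA8, the higher members were ITGA10 and ITGA11, collagen-binding subunits that pair with integrin beta-1. ITGA11 was at 36.3 and 36.7 CPM in T98G and at most at 0.0674 CPM elsewhere, and ITGA10 at 2.72 and 2.35 CPM against 0.148 to 0.808 CPM. The lesser difference of ITGA10 (1.02) fell to 0.91 without the siControl library of LN-229 and to 0.93 without that of T98G. The lower members were ITGA4, ITGA7, ITGA9 and ITGB8. ITGB8, which binds latent TGF-beta, was at 32.0 and 42.4 CPM in T98G, 504 and 624 CPM in LN-229, and 325 and 353 CPM in U251. ITGA9 was at 2 reads at most in T98G and at 10.03 to 61.3 CPM elsewhere.

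Matrix glycoproteins and proteoglycans divided evenly, with 4 higher and 4 lower of 27 tested (14.8% each). The lower genes THBS2, TNC, EFEMP1 and VCAN are abundant in the matrix of glioma. TNC, tenascin C, was at 40.6 and 25.4 CPM in T98G, 1083 and 1163 CPM in LN-229, and 457 and 798 CPM in U251. VCAN, the proteoglycan versican, was at 72.7 and 96.3 CPM against 213 to 762 CPM. The higher genes were the collagen cross-linking oxidases LOX and LOXL1, the fibulin EFEMP2 and the secreted CCN protein WISP1. LOX was at 69.2 and 46.6 CPM in T98G, 3.06 and 9.74 CPM in U251, and at most at 0.0567 CPM in LN-229.

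Of 24 tested proteases and inhibitors of the matrix, 7 (29.2%) were higher and 4 (16.7%) lower in T98G, beside 4.97% and 4.7% of all tested genes. The higher genes included MMP1 and MMP13, collagenases, and MMP3, stromelysin, which lie next to each other on chromosome 11. MMP1 was at 87.6 CPM in the siControl and 19.1 CPM in the siHOTAIRM1 library of T98G, MMP3 at 38.4 and 9.47 CPM, and MMP13 at 27.5 and 12.5 CPM. In the other lines none of them exceeded 0.498 CPM. The libraries of T98G thus differed from each other by a wide margin in these genes, but remained far from the other lines. The lower genes were the membrane-bound MMP16, the plasminogen activator PLAT, its inhibitor SERPINE2 and ADAM19. SERPINE2 (lesser difference -1.43) missed the limit without the siHOTAIRM1 library of T98G (-0.75). PLAT was at 6.67 and 7.59 CPM in T98G and at 64.9 to 300.1 CPM elsewhere.

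The list with the largest share of higher genes was that of aldehyde, xenobiotic and glutathione enzymes, with 13 of 31 tested (41.9%) higher and 3 lower. Its members summed to 4752 and 3203 CPM in T98G and to 972 to 1421 CPM in the other libraries. Reductases of the AKR1 family took most of it. AKR1B1, the aldose reductase of the polyol pathway, was at 1374 and 672 CPM in T98G and at 80.8 to 128.7 CPM elsewhere. AKR1B10 was at 325 and 197 CPM against at most 3.43 CPM. AKR1C1 was at 583 and 369 CPM against 4.89 to 10.1 CPM, and AKR1C3, which makes testosterone from androstenedione, at 165 and 111 CPM against 4.93 to 42.5 CPM. All 4 were lower in the siHOTAIRM1 than in the siControl library of T98G.

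The AKR1C genes are near copies of each other on chromosome 10, so a read can match more than 1 of them and the split of reads between AKR1C1 and AKR1C2 is uncertain. The likeness extends to the sequence before their starts. In the RefSeq promoter windows (GRCh38.p14), the bases upstream of both genes aligned over 254 columns with 245 identical (96.5%). The following 84 bases, which end before the first annotated start of AKR1C1, are shown because they are the same in both windows. No letter is in capitals since none differs.

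AKR1C1, chr10:4963169-4963252, plus strand: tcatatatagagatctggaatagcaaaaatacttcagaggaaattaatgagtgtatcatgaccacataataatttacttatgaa
AKR1C2, chr10:5004024-5004107, minus strand: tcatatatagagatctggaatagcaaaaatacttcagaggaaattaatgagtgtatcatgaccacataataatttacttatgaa

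Aldehyde dehydrogenases and transporters followed the reductases. ALDH1A1, a retinal dehydrogenase often used as a stem cell marker, was at 14.1 and 9.16 CPM in T98G, 1.64 and 1.32 CPM in LN-229, and at most at 0.172 CPM in U251. ALDH2, the mitochondrial enzyme that clears acetaldehyde, was at 22.5 and 20.1 CPM and at most at 0.0386 CPM elsewhere. ALDH3A1 was at 19.5 and 10.3 CPM and at most at 0.0396 CPM elsewhere. The sulfotransferase SULT1A1 and the drug efflux transporters ABCC1, ABCC3, ABCC4 and ABCG2 were also higher. ABCC1 was at 224 and 234 CPM in T98G against 31.7 to 71.7 CPM. The lower members were ALDH1L2, GSTA4 and UGT8. ABCC3 missed the limit without the siHOTAIRM1 library of T98G (0.98), and GSTA4 without that of LN-229 (-0.83).

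MGMT belonged to the genes present in T98G alone. It was at 7.44 and 5.86 CPM in the T98G libraries, at 1 read in the siControl library of LN-229, and listed at 0 in the other 3 (differences 2.92 and 2.93). MGMT passed the filter for the test only through its T98G libraries, so no p-value is given for it. Of the 12 other tested genes of alkylation and mismatch repair, only ALKBH2, a demethylase of alkylated bases, was beyond both lines, at 3.66 and 3.38 CPM against 9.002 to 17.3 CPM, and it missed the limit after rescaling of each library to an equal sum (-0.97). The sequence before the MGMT start is shown with its CpG sites in capitals because this promoter is rich in them, and no methylation was measured here. The 199 bases upstream of the first annotated start hold 29 CpG sites, while 4.45% of the 27305 promoter windows in the RefSeq table hold as many over the same length (median 7).

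MGMT, chr10:129466991-129467189, plus strand: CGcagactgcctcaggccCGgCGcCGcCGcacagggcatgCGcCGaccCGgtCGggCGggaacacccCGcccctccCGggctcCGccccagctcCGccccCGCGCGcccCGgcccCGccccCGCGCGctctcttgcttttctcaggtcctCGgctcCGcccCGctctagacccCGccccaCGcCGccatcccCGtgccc

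CDKN2B, an inhibitor of the kinases CDK4 and CDK6, was detected in T98G alone. Its level was 8.04 and 4.28 CPM there, and it was listed at 0 in the other 4 libraries. CDKN2A, its neighbour on chromosome 9, was looked up after these values were seen: it was at 11 and 13 reads in T98G (0.159 and 0.179 CPM, under the filter) and listed at 0 in the other 4. MTAP, on the other side of CDKN2A, was detected in every line and was lower in T98G, at 23.6 and 16.7 CPM against 55.4 to 106.6 CPM. Of 13 tested tumour suppressors of glioblastoma, CDKN2B and MTAP were the only ones beyond both lines. That is 7.69% in each direction, near the 4.97% and 4.7% of all tested genes.

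Developmental transcription factors outside the HOX clusters were more often higher than lower, 10 (25%) against 3 (7.5%) of 40 tested. The shares of all tested genes were 4.97% and 4.7%. Besides FOXF1, its relative FOXF2 was at 12.8 and 11.9 CPM in T98G and at most at 0.443 CPM elsewhere. ALX4, a factor of the craniofacial mesenchyme, was at 15.9 and 12.7 CPM and at 3 reads at most elsewhere. FOXF1, FOXF2 and ALX4 were under 1 CPM in every other library and so were tested only through T98G. The excess of higher genes thus follows in part from the filter. NR2F1 was at 65.7 and 92.6 CPM against 1.37 to 18.2 CPM. PAX3, MSX1, MSX2, PITX1, TBX15 and ZIC2 were higher with lesser differences from 1.06 to 2.06. Without the siControl library of T98G both TBX15 and ZIC2 missed the limit (0.94 each), as did TBX15 without that of LN-229 (0.96) and ZIC2 without that of U251 (0.96). PRRX1, a mesenchymal homeobox factor, went against this direction, at 0.449 and 0.275 CPM in T98G and 34.9 to 87.0 CPM elsewhere, and DLX6 and FOXC1 were lower as well. Among 20 tested HOX genes, HOXB7 alone was beyond both lines, at 2 reads in each T98G library and 8.45 to 11.5 CPM elsewhere. This share of 5% lower was close to the 4.7% of all tested genes, so the HOX genes did not stand out. SOX2 and SOX5 were lower among 11 tested SOX factors.

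Receptor tyrosine kinases, the main drivers of glioblastoma growth, showed 7 (22.6%) higher and 1 (3.23%) lower of 31 tested. The shares of all tested genes were 4.97% and 4.7%. Against LN-229 alone 11 passed as higher and 13 as lower, and against U251 10 and 14, so the list was not raised as a whole. It summed to 1325 and 1156 CPM in T98G and to 1347 to 1499 CPM in the other libraries. EGFR was at 171 and 140 CPM in T98G and 44.4 to 52.6 CPM elsewhere (differences 1.57 and 1.69, standard error 0.18, adjusted p = 3.34e-09 and 5.88e-10). Its ligand TGFA was lower, as given above. KIT was at 4.503 and 3.26 CPM and listed at 0 in all 4 other libraries, so it passed the filter only through T98G. FGFR1, ROR1, EPHA4 and EPHB2 were higher by 1.13 to 1.59 as the lesser difference. EPHA3 was the lower receptor, at 0.0001 and 0.0413 CPM in T98G, 6.15 and 6.20 CPM in LN-229, and 318 and 219 CPM in U251.

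Of 31 tested growth factor ligands, 6 (19.4%) were higher and 4 (12.9%) lower, beside 4.97% and 4.7% of all tested genes. ANGPT1, the ligand of the endothelial receptor TIE2, was at 109 and 107 CPM in T98G against 4.77 to 18.7 CPM. The ErbB ligand NRG1 was at 83.2 and 62.9 CPM against 8.12 to 15.2 CPM. CSF1, PDGFD, EFNB1 and IGF2 were also higher, and IGF2 (4.55 and 5.67 CPM) was at 1 read at most in any other library. CSF1 (lesser difference 1.31) missed the limit without the siControl library of T98G (0.95). The lower ligands besides TGFA were EFNB2, FGF13 and PGF. EFNB2, a ligand of EphB receptors, was at 0.275 and 0.0826 CPM against 17.3 to 60.9 CPM.

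Members of the TGF-beta and BMP pathway and of the WNT pathway differed in both directions. In the former 6 (18.75%) were higher and 5 (15.6%) lower of 32, and in the latter 4 and 4 of 20 (20% each). The shares of all tested genes were 4.97% and 4.7%. TGFB2 was at 138 CPM in both T98G libraries, 2.58 and 2.76 CPM in LN-229, and 35.7 and 49.2 CPM in U251, while TGFB3 was at 0.391 and 0.495 CPM in T98G and 7.59 to 10.97 CPM elsewhere. BMP7 was present at 8.15 and 6.81 CPM in T98G alone. WNT5A, a ligand of the non-canonical pathway, was at 210 and 167 CPM in T98G against 27.6 to 53.0 CPM. Of the receptors, FZD2 and FZD7 were higher and FZD3, FZD6 and FZD8 lower, though FZD8 missed the limit under median centring (-0.96) and without the siControl library of U251 (-0.99). FZD7 was at 52.3 and 43.8 CPM against 6.70 to 9.29 CPM, and FZD3 at 1.13 and 1.47 CPM against 21.8 to 31.9 CPM. In the Notch pathway, the ligand JAG1 and the target HES1 were lower and DTX4 was higher among 10 tested.

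Receptors of fast neurotransmission were few but their summed level was highest in T98G, at 267 and 265 CPM against 61.9 to 74.7 CPM. Most of this sum in T98G was GABRA2, at the level given above. Of 10 tested glutamate and GABA receptor genes, 3 were higher, GABRA2 and GRIK4 among them, and GABRA3, GABRQ and GRIK2 were lower. GABRQ (lesser difference -1.02) missed the limit under median centring and quantile normalization (-0.93 in each) and without the siHOTAIRM1 library of LN-229 (-0.84) or of T98G (-0.95). GRIK4, a kainate receptor subunit, was at 5.30 and 4.74 CPM in T98G and at most at 0.938 CPM elsewhere. GRIK2, another such subunit, was at 0.348 and 0.193 CPM against 22.4 to 35.1 CPM. Among 56 tested ion channel genes, 11 (19.6%) were higher and 3 (5.36%) lower, beside 4.97% and 4.7% of all tested genes. CACNA1C, the pore of the cardiac L-type calcium channel, was at 16.8 and 15.9 CPM in T98G and at 2 reads at most elsewhere. KCNQ5, a potassium channel of neurons, was at 1 read in each T98G library and at 9.68 to 13.03 CPM elsewhere.

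Adhesion molecules of neurons were lower in 5 of 19 tested genes (26.3%) and higher in 0, beside 4.7% and 4.97% of all tested genes. Against LN-229 alone 15 passed as lower and 3 as higher, with a median difference of -2.26. Against U251 10 passed as lower and 5 as higher, with a median of -0.47. NLGN1, a postsynaptic neuroligin, was at 0.0435 and 0.0276 CPM in T98G and 8.24 to 12.9 CPM elsewhere. NEGR1 and NTM, both of the IgLON family, were at 0.0580 CPM or under in T98G, and NEGR1 was at 4.21 to 11.3 CPM elsewhere. LSAMP, a further IgLON, and NCAM1 were lower by 1.39 and 1.22 as the lesser difference, and NCAM1 missed the limit after rescaling (-0.93). Axon guidance genes went both ways, with 7 higher and 5 lower of 34, and SEMA5A led the higher ones (44.65 and 54.97 CPM against 2.03 to 5.62).

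No cancer-testis antigen was higher and 5 of 28 tested were lower than in both lines. Against LN-229 alone all 28 passed as lower. Against U251 only 5 passed as lower and 1 as higher, with a median difference of 0.004. These genes are normally silent outside the germ line. The list summed to 4.37 and 3.28 CPM in T98G, 530 and 536 CPM in LN-229, and 214 and 181 CPM in U251. Of the 75 listed, 65 were at 3 reads or fewer in both T98G libraries, which was not counted in the other lines. MAGEA12 was at 0.0580 and 0.0138 CPM in T98G, 48.7 and 50.2 CPM in LN-229, and 83.9 and 67.0 CPM in U251. MAGEA6 was at 0.760 and 0.341 CPM against 73.1 to 93.5 CPM. MAGEA3, MAGEA2 and MAGEA2B were the other 3. Since these are near copies, the share of each in the family's reads is uncertain, but the family as a whole was low in T98G.

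The paternally expressed transcripts of the Prader-Willi region on chromosome 15 were lower as well. SNRPN, a splicing protein gene, was at 1 read or fewer in T98G and at 9.01 to 10.7 CPM elsewhere. SNHG14, the long host transcript that runs on from it, was at 2 reads at most in T98G against 11.1 to 20.7 CPM, and SNURF, which shares its transcripts with SNRPN, was at most at 0.0273 CPM there. GRB10 was lower, at 16.7 and 11.0 CPM against 68.5 to 150.2 CPM. IGF2 and MEG3 were the higher genes among 16 tested imprinted genes. MEG3 was at 7.83 and 4.54 CPM in T98G, listed at 0 in LN-229, and at 1.82 and 2.55 CPM in U251, and it missed the limit without the siControl library of T98G (0.72) or of U251 (0.81).

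Genes of antigen presentation were higher in 4 of 23 tested and lower in 0 than in both lines. Against LN-229 alone 12 passed as higher and 10 as lower, and against U251 12 and 1. HLA-B was at 334 and 301 CPM in T98G, 30.4 and 33.4 CPM in LN-229, and 102 and 94.1 CPM in U251. HLA-C was at 287 and 255 CPM against 16.1 to 62.2 CPM. These genes resemble each other, so the split of reads between them is uncertain. HLA-F and the immunoproteasome subunit PSMB9 were the other members, and the lesser difference of HLA-F (1.04) fell to 0.95 without the siControl library of T98G and to 0.86 without the siHOTAIRM1 library of U251. Of 30 tested interferon response genes, 5 were higher and 1 lower. Against LN-229 alone 26 passed as higher, but against U251 7 passed as higher and 17 as lower. BST2, tetherin, was at 44.3 and 39.1 CPM against 2.75 to 8.07 CPM, and IRF1 at 66.95 and 52.2 CPM against 10.8 to 14.2 CPM.

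In the larger remaining lists few genes were beyond both lines, beside 4.97% higher and 4.7% lower of all tested genes. Of 441 zinc finger genes 7 were higher and 15 lower (1.59% and 3.401%), and of 37 cell cycle genes 1 was higher and 0 lower. Of 110 ribosomal protein genes 0 were higher and 5 lower, with median differences of -0.35 against LN-229 and -1.20 against U251. Against U251 alone 102 of the 110 passed as lower, and against LN-229 44 did. Their count beyond both lines fell to 2 lower under median centring. None of 40 tested clustered protocadherins was beyond both lines. The smaller lists are given with the share of their tested genes. Of 8 metallothioneins and zinc transporters, MT2A and SLC30A1 (25%) were lower. Of 15 cytokines, CXCL12 was higher and IL11 lower (6.67% each). Of 16 annexins and S100 proteins, 2 (12.5%) were higher and 3 (18.75%) lower. Of 15 keratins and other intermediate filaments, NES, SYNM and VIM (20%) were lower. Of 3 contractile markers TPM2 (33.3%) was higher, and of 9 cadherins 1 (11.1%) was lower. Of the cadherins CDH2 was lower, a call lost under median centring (lesser difference -0.86) and without the siHOTAIRM1 library of T98G (-0.97) or of U251 (-0.99). TPM2 lost its call without the siControl library of T98G (0.80) or of U251 (0.96). The 1 endothelial and the 2 neural crest markers tested were not beyond both lines.

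**Figure D4:**
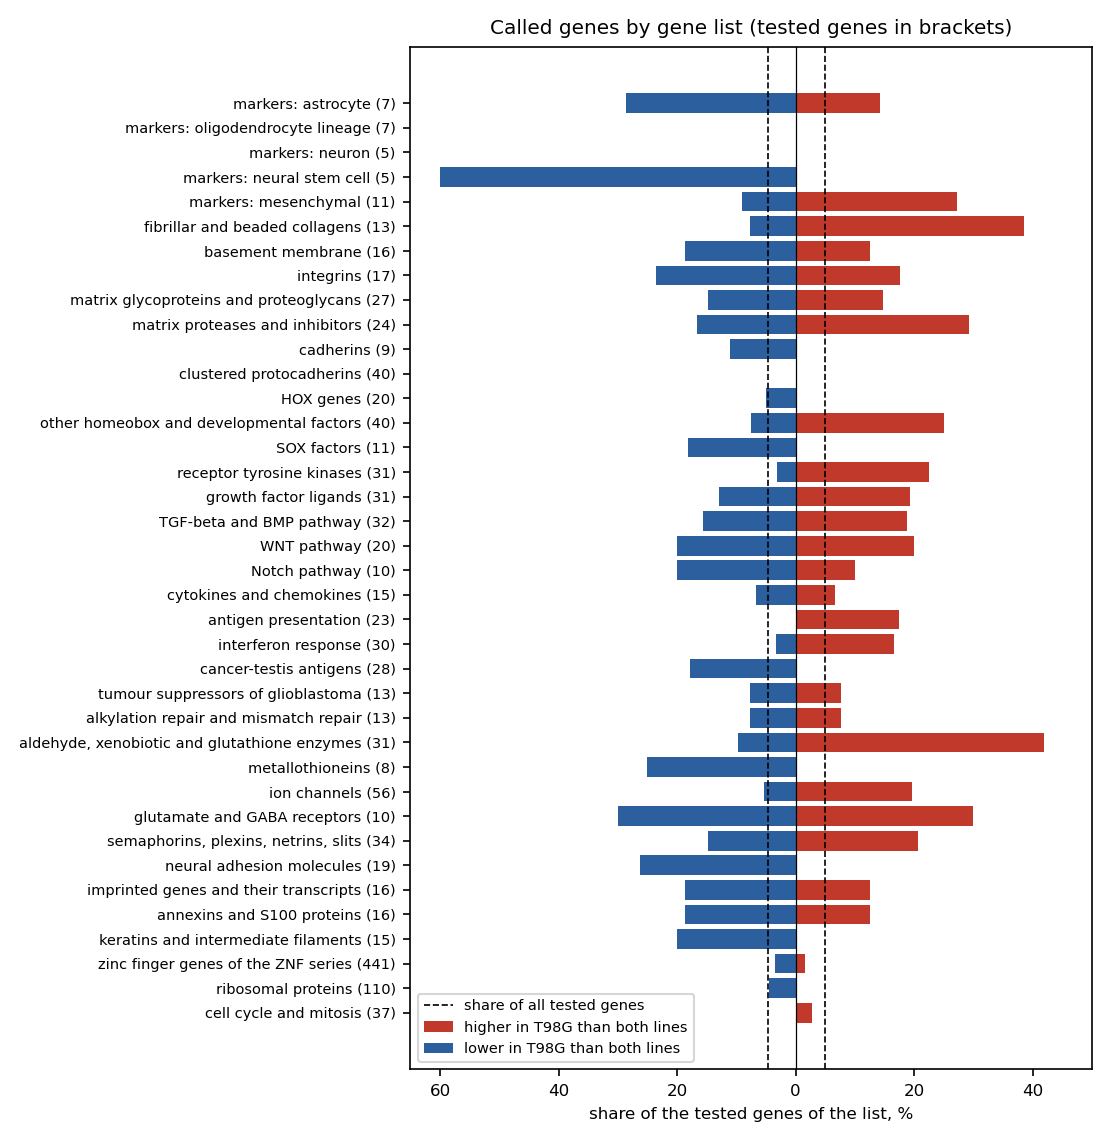
Share of the tested genes of each list with at least 5 of them that were higher (right, red) or lower (left, blue) in T98G than in both lines, with the number of tested genes in brackets and the shares of all tested genes (4.97% and 4.7%) as dashed lines. Neural stem cell markers reach 60.0% lower, and the aldehyde and xenobiotic enzymes 41.9% higher.

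The counted genes were not spread evenly along the genome. Positions on hg38 were found for 664 of the higher and 649 of the lower genes. On chromosome 21, 18 of 122 tested genes (14.8%) were higher and 2 (1.64%) lower, and on chromosome 22, 35 of 297 (11.8%) were higher and 5 (1.68%) lower. On chromosome 14 it was the reverse, with 9 of 420 (2.14%) higher and 44 (10.5%) lower. The median difference of all tested genes of chromosome 21 was 0.54 against LN-229 and 0.52 against U251, and that of chromosome 14 was -0.62 and -0.57. Chromosome 16 had the smallest share of lower genes, 4 of 557 (0.718%). Under median centring, rescaling or quantile normalization the share of higher genes was 21.3 to 23.8% on chromosome 21 and 13.1 to 14.8% on chromosome 22, and the share of lower genes on chromosome 14 was 7.62 to 7.86%.

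**Figure D5:**
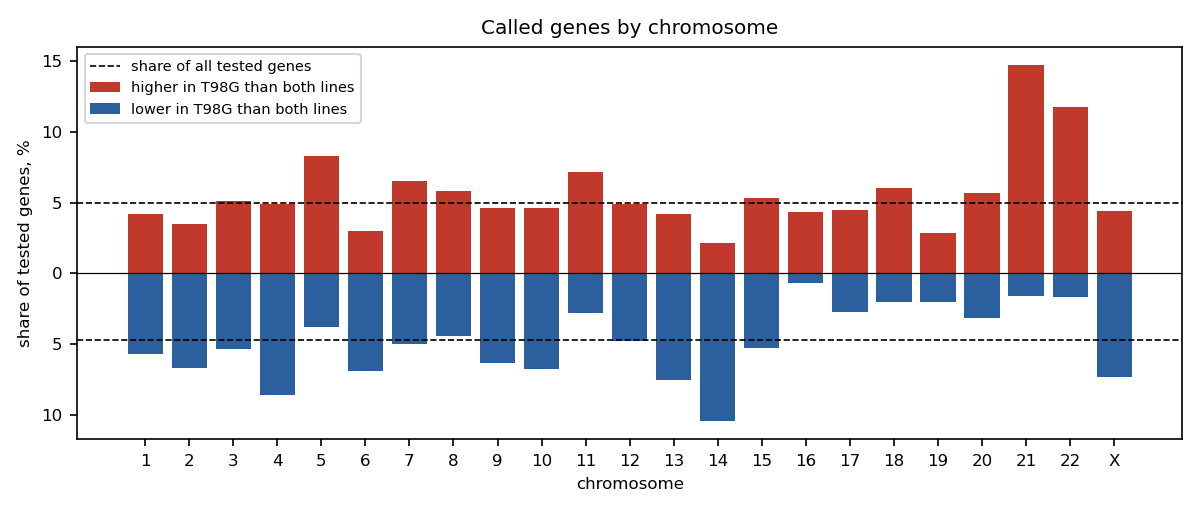
Share of the tested genes of each chromosome that were higher (up, red) or lower (down, blue) in T98G than in both lines, with the shares of all tested genes as dashed lines. Chromosomes 21 (14.8%) and 22 (11.8%) stand out above, and chromosome 14 (10.5%) below.

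Windows of 25 neighbouring tested genes resolved this further. The lowest of 12471 windows was chr6:78867551-85644063 (IRAK1BP1 to SYNCRIP), with medians of -0.90 and -0.87 against LN-229 and U251 and 6 lower genes, and the next 3 lay on chromosome 14. The highest window was chr21:44215382-46570015 (ICOSLG to DIP2A), with medians of 0.99 and 0.80 and 6 higher genes, COL6A1 and COL6A2 among them. It was followed by chr11:94706431-105035250 (AMOTL1 to CASP1), with medians of 1.28 and 0.79, 9 higher genes and 1 lower, which holds the MMP genes.

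Runs of neighbouring genes in the same direction ranged from 3 to 9 genes. The longest was on the X chromosome, where 9 lower genes followed each other from GABRA3 to MAGEA6 (chrX:152166234-152769716) and included GABRQ, whose call depended on the scaling, CSAG1 and CSAG3 besides the MAGEA genes. On chromosome 11 a run of 5 higher genes held DYNC2H1, PDGFD, the caspase genes CASP4 and CASP1, and CARD16. CASP4 missed the limit without the siHOTAIRM1 library of T98G (0.99) or of U251 (0.76). On chromosome 22 the antiviral deaminases APOBEC3C, APOBEC3D, APOBEC3F and APOBEC3G were higher together, and so were APOL1, APOL2 and APOL3, of which APOL2 missed the limit without the siControl library of T98G or of U251 (0.78 in each). On chromosome 5 the cytokine receptors LIFR and OSMR were higher with LIFR-AS1. LIFR was at 199 and 267 CPM in T98G against 24.4 to 41.4 CPM, and LIFR-AS1 could not be told apart from it by strand and missed the limit under quantile normalization (0.998) and without the siHOTAIRM1 library of T98G (0.91). These runs were named for their position after the values were seen.

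The lines were also compared within each siPOOL. Of 811 genes at least 1 above both lines in the siControl libraries, 597 (73.6%) were so in the siHOTAIRM1 libraries and 806 had the same sign, while 4.48% of all tested genes reached this limit there. Of 567 genes at least 1 below both lines, 511 (90.1%) were so again and all 567 had the same sign, against 5.88% of all tested genes. Picked in the siHOTAIRM1 libraries instead, 597 of 641 higher genes (93.1%) and 511 of 840 lower genes (60.8%) were so in the siControl libraries. Since the libraries share their cell lines, this describes overlap between 2 treatments of the same lines and is no independent sample of T98G. At the limit of 1 the division was arbitrary: NPIPA5 (1.002) and MAGED4 (1.003) were just inside and ATOH8 (0.9999) and EPB41L1 (0.999) just outside for higher genes, and ACTBP7 and SLC25A10 (both -1.002) were inside and RMND5A (-0.9999) and DKC1 (-0.998) outside for lower genes. Without the limit, 1712 genes would count as higher and 2587 as lower.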

How the data were processed

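Libraries prepared with the TruSeq v2 kit, not stated to keep strand, were sequenced from 3 cell lines and 2 siPOOLs. Reads had 13 bases (start) and 1 base (end) removed, were aligned to hg38 with STAR 2.4.1d and, where unaligned, Bowtie 2 2.2.5, and were quantified in Partek by Expectation-Maximization on Ensembl release 84. The authors deposited CPM with 0.0001 added. Listed genes sum to 42.9 to 67.2% of the scale of each library. The size of 1 read was inferred from the spacing of low values. Between 76.7 and 80.3% of values lay within 0.05 of a whole number of reads, too few for a model of counts. Floors of 3 reads cover counting error only.

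Log2(CPM + 1) of the 14294 tested genes was fitted with limma 3.58.1 (R 4.3.3) over all 6 libraries, using line and siPOOL as terms, a trend of the variance with the mean, and Benjamini-Hochberg adjustment over all tested genes. The script was tested on simulated data. GENCODE 44 placed 13036 tested genes on hg38, and promoters came from RefSeq. Promoter CpG content of the counted genes is not compared here. A promoter was found for 67% of the higher genes and 70.3% of all tested genes. By rule the text names the 12 genes with the largest lesser difference in each direction, the 8 leading genes of each class of present or absent genes, up to 4 called members per list, lineage markers of at least 10 CPM in some line, HOTAIRM1 and the genes of named windows. Other list members, the genes of runs and those given to complete a list were named after their values were seen. The members and lists were chosen with earlier results of these data known. Genes of chromosome Y were not named. Some genes that the rule would name are not reported here. Alternatives were other pseudocounts, filters, scalings and models, and leaving out each library.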

Additional observations from a re-analysis of the deposited data

Results flagged for a closer look

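Among the genes counted as particular to T98G and named by rule, 2 changed between the siPOOLs in opposite directions in T98G and U251 by at least 0.5. For AKAP12, siHOTAIRM1 minus siControl was -0.58 in T98G and 0.91 in U251, a difference of -1.49 between the lines. For the matrix protein tenascin C (TNC), it was -0.65 in T98G and 0.80 in U251, a difference of -1.46. Each change rests on 1 library per siPOOL, and the difference between the lines was not tested. Both genes were lower in T98G than in the other lines in either siPOOL, as the rule for counted genes requires.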

How the results depend on the processing

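Of 135 named genes counted as particular to T98G, 124 stayed so under every alternative that tested them other than a minimum difference of 2, and none reversed. The exceptions had lesser differences close to 1 (VIM, CDH2, RPL9, RPS7, COL4A4, ALKBH2, GLUL, HLA-F, LAMB3 and TPM2), except COL3A1, which passed no longer without a filter. The counts of genes beyond both lines (710 higher, 672 lower) were 388 higher with a mean of at least 5 CPM, 1712 and 2587 with no minimum difference, and 292 and 203 with a minimum of 2. Genes higher than in U251 (3304) numbered 5467 without a filter, 2037 with a mean of at least 5 CPM and 5141 after rescaling each library to an equal sum over the listed genes, and genes lower than in U251 (5866) then numbered 3549. Present genes (105) and absent genes (72) numbered 169 and 117 with 10 reads in place of 3, and 51 and 26 with 5 CPM in place of 1. The siPOOL, trend, pseudocount, median and quantile alternatives, which do not apply to these classes, kept the counts against LN-229, U251 and both lines within 1.5 times. Of 168 other members of lists and runs beyond both lines, 45 lost their call under some alternative, a minimum difference of 2 not counted.

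Leaving out 1 library gave 2022 to 3546 genes higher and 2437 to 4502 lower than in LN-229, and 2177 to 3175 higher and 3806 to 5646 lower than in U251. The counts of higher genes moved by over 1.5 times without the siControl library of T98G (2022 and 2177) and, against LN-229, without that of LN-229 (2283). The counts of lower genes did so without the siHOTAIRM1 library of T98G (2437 and 3806) and, against LN-229, without that of LN-229 (2636). Genes beyond both lines numbered 634 to 798 higher and 605 to 794 lower.

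No paired analysis was possible because the replicate numbers only name the siPOOL, which is a term of the fit. Depth limited the classes of present and absent genes, whose floor of 3 reads was highest (0.0574 CPM) in the siControl library of U251. With 1 library per line and siPOOL, a difference between lines cannot be told apart from a difference between cultures.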
